A study of Mus musculus with 6 samples.

Results

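The motile cilia and axoneme genes described here are 66 protein-coding genes of the mouse that were taken by symbol. They are all genes whose symbol in a GRCm38 annotation starts with Cfap, Dnah, Dnai, Drc or Rsph, with 1 dynein heavy chain gene left out, together with Foxj1, Ccdc39, Ccdc40, Ccdc153, Tmem212, Dynlrb2, Spef2 and Sspo. They make up 66 of the 55487 genes in the count tables. Each RNA sample was the cerebellum of 1 male mouse at postnatal day 14. The 3 knockout animals (KO, strain label Wbscr17KOKO) were homozygous for Galnt17tm1.1(KOMP)Vlcg, an allele of the glycosyltransferase gene Galnt17, formerly Wbscr17. The line was made on C57BL/6J, where homozygotes were not born alive, and was then bred to hybrids of C57BL/6J and C3H/He, called B6C3, which gave the live homozygotes. The 3 wild-type animals (WT) were of the B6C3 stock, and the labels do not say that they were littermates of the knockouts, so the allele and other differences between the stocks cannot be told apart. The question set by the design is how the knockout cerebellum differs from the wild type.

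A motile cilium beats by means of its axoneme, a ring of paired microtubules around a central pair. Outer and inner dynein arms are the motors that slide neighbouring microtubules, radial spokes and the central pair carry regulatory signals to them, and the nexin link holds the ring together. FOXJ1 is the transcription factor that switches on the genes of motile cilia. In and around the cerebellum, cilia of this kind stand on the ependymal cells that line the ventricles. The choroid plexus epithelium bears cilia as well, and most neurons and glia carry a primary cilium, which does not beat.

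Counts in genes totalled 17111611 to 29840046 per library. Mapping separated the groups completely: unmapped reads were 13.8% to 17.2% in KO and 6.52% to 10.0% in WT, multimapping reads 3.72% to 3.90% in KO and 4.09% to 4.29% in WT, and ambiguous reads 3.95% to 4.07% in KO and 4.35% to 4.44% in WT. These shares move with every difference between KO and WT given below, and their part in the results was not tested. Galnt17 had 63 to 80 counts in the KO libraries against 729 to 1119 in the WT libraries, as the labels give the groups. All 14 markers of cerebellar tissue were measured, among them Calb1 of Purkinje cells and Gabra6 of granule cells. Of these 2 rose in KO (14.3%, where 0.784% of all tested genes rose), Pcp2 (log2 fold change 0.35, adjusted p = 0.0261) and Car8 (log2 fold change 0.40, adjusted p = 0.0371). Without KO 1, KO 2 or KO 3, 0 of the 14 rose, where 39, 28 and 43 genes rose over all genes, against 143 with all animals. Markers of the choroid plexus epithelium were much lower in KO and are given below beside the ciliary genes. Spread was wider among WT animals: the median SD of log2(CPM + 0.1) was 0.187 in KO and 0.292 in WT over the 61 ciliary genes tested. Over all 18237 tested genes it was 0.0830 in KO and 0.142 in WT.

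Of the 66 genes, 60 had at least 60 counts summed over the 6 libraries, and their median sum was 349 counts. The other 6, taken as not measured, were Rsph6a, Cfap221, Rsph14, Cfap97d1, Cfap73 and Cfap299. Nearest the limit, Cfap73 had 34 counts and Cfap299 59 counts in all, while Cfap161 had 74 and Cfap77 had 76. Levels below are CPM, read counts divided by library size after TMM scaling, and are always listed in the order of libraries 1, 2 and 3 of a group. Fold changes are KO over WT on the log2 scale. Each adjusted p is from the quasi-likelihood test of edgeR, adjusted by Benjamini-Hochberg over the 18237 genes that passed its filter on low counts. That filter kept 61 of the 66 genes, the 60 measured ones and Cfap299.

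As a group the axoneme genes differed little between KO and WT. Of the 61 tested, 2 rose in KO (3.28%, where 0.784% of all tested genes rose), the SCO-spondin gene Sspo and the inner arm heavy chain gene Dnah7b. Sspo is no axoneme gene, and without it 1 of 59 measured genes rose (1.69%). None fell (0 of 61, where 0.872% of all tested genes fell). By DESeq2 and by limma-voom 0 genes were lower and 2 higher as well. At an unadjusted p under 0.05, 3 genes were higher and 5 were lower, which is 4.92% and 8.20% of the 61, where 8.57% and 8.99% of all tested genes passed this mark. The median log2 fold change was -0.07 over the 61 genes and -0.01 over all tested genes, with 35 of the 61 below 0 (57.4%, where 51.5% of all tested genes were). KO and WT did not overlap in 11 of the 61 genes (18.0%), where 23.7% of all tested genes did not. Without KO 1, KO 2, KO 3 or WT 2 the count of the 61 genes called was 0 in each case. Over all genes the number called higher then fell as well, from 143 to 39, 28, 43 and 58 in that order. The samples are whole tissue, so fewer ciliated cells and less RNA per ciliated cell cannot be told apart in any value below.

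**Figure D1:**
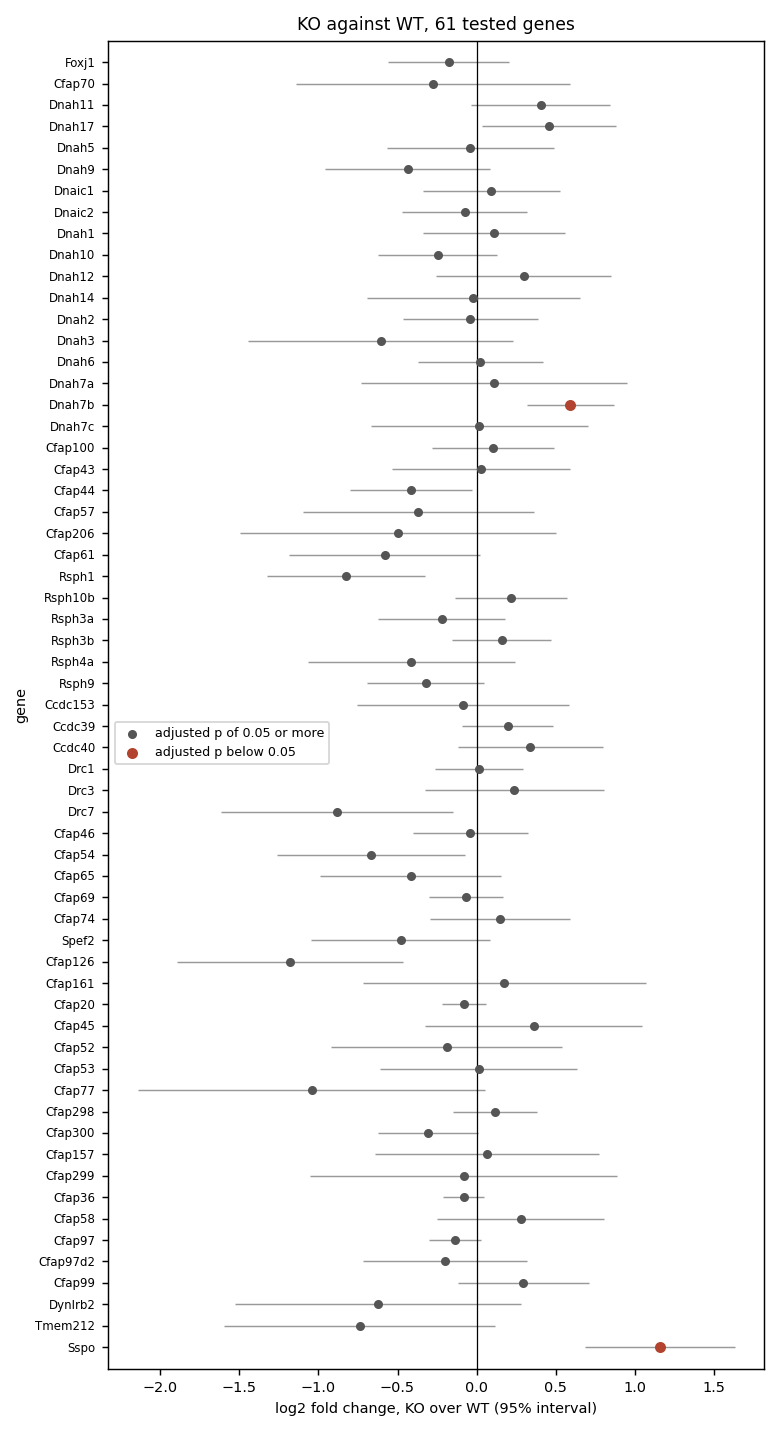
Log2 fold change of KO over WT for each of the 61 tested genes (points) with its 95% interval (bars), in the order of their roles in the axoneme. Dnah7b and Sspo (red) passed the adjusted p of 0.05, and most other intervals span 0.

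Foxj1 did not pass. It had 8.41, 9.67 and 7.6 CPM in KO, against 7.79, 8.98 and 12.3 CPM in WT. The highest KO value lay above 2 of the 3 WT values, so the groups overlapped, and WT 3 was the highest library. The log2 fold change was -0.18 (SE 0.17, adjusted p = 0.629), and its 95% interval ran from -0.56 to 0.21. Of 17 tested genes of 19 in a list of other regulators of ciliogenesis, 0 passed in edgeR. At an unadjusted p under 0.05, 1 of them was higher (5.88%) and 2 were lower (11.8%), where 8.57% and 8.99% of all tested genes were. The smallest p was that of Gmnc, which encodes a geminin-like regulator at the top of the programme of multiciliated cells, with 0.503, 0.516 and 1.24 CPM in KO, against 1.57, 1.52 and 1.99 CPM in WT (log2 fold change -1.22, SE 0.36, adjusted p = 0.121). Its 3 KO values lay below the 3 WT values. Trp73, whose product p73 acts upstream of Foxj1, had 15.6, 13.5 and 14.8 CPM in KO, against 16, 20.1 and 17 CPM in WT (log2 fold change -0.27, SE 0.11, adjusted p = 0.239), again without overlap.

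The motors of the outer arm are the heavy chains of Dnah5, Dnah9, Dnah11 and Dnah17, and Dnaic1 and Dnaic2 encode intermediate chains of that arm. With the outer arm component gene Cfap70 these were 7 genes tested, and 0 of them passed in edgeR. At an unadjusted p under 0.05, 1 was higher (14.3%, where 8.57% of all tested genes were). That was Dnah17, a heavy chain known chiefly from sperm flagella, which had 4.05, 3.44 and 3.67 CPM in KO, against 3.31, 2.29 and 2.48 CPM in WT. Each KO value lay above each WT value, by little at the nearest pair of libraries (log2 fold change 0.46, SE 0.19, adjusted p = 0.254). Dnah11 had 14.5, 16.9 and 15 CPM in KO, against 14.6, 7.33 and 12.7 CPM in WT, with WT 2 the lowest library by far (log2 fold change 0.40, SE 0.20, adjusted p = 0.321). Dnaic1, the more abundant of the intermediate chain genes per kb, had 3.52, 3.48 and 4.82 CPM in KO, against 3.06, 3.75 and 4.23 CPM in WT, and the groups overlapped (log2 fold change 0.09, adjusted p = 0.839). Dnah5, the heavy chain gene most often mutated in human primary ciliary dyskinesia, was at 2.7 ± 0.78 CPM in KO and 2.8 ± 0.384 CPM in WT, and Dnah9 at 2.14 ± 0.503 CPM in KO and 2.86 ± 0.504 CPM in WT (SD, n = 3 each). Dnaic2 and Cfap70 had log2 fold changes of -0.08 and -0.28, with adjusted p = 0.858 and 0.747.

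Among the 10 heavy chain genes of the inner arms, Dnah7b (chromosome 1, 46066315 to 46373546, plus strand) rose in KO. It had 17, 16.1 and 17.7 CPM in KO, against 11.8, 9.04 and 12.7 CPM in WT. The counts behind these were 507, 375 and 356 counts in KO and 284, 154 and 262 counts in WT. The lowest KO library was well above the highest WT library, and the fitted level was 1.51 times that of WT (log2 fold change 0.59, SE 0.12, adjusted p = 0.0453, 95% interval 0.32 to 0.87). The adjusted p was 0.178 without KO 1, 0.161 without KO 2, 0.181 without KO 3 and 0.103 without WT 2. Its log2 fold change stayed between 0.47 and 0.69 over the 12 alternatives. Dnah7b has 2 close relatives on the same chromosome, Dnah7a and Dnah7c, and reads that map to several places were set aside in the tables, so the split of reads between them is uncertain. Annotated exons total 19980 bases in Dnah7b, against 12767 in Dnah7a and 12603 in Dnah7c. Where along Dnah7b its reads lie was not tested. Dnah7a was at 0.651 ± 0.281 CPM in KO and 0.61 ± 0.0769 CPM in WT and Dnah7c at 1.42 ± 0.397 CPM in KO and 1.4 ± 0.484 CPM in WT (SD, n = 3 each), and neither passed (adjusted p = 0.908 and 0.984). Dnah7b took 86.8% to 92.2% of the summed CPM of the 3 genes in KO and 82.3% to 86.2% in WT. That sum was 19.6, 18.3 and 19.2 CPM in KO 1, 2 and 3, against 14.3, 10.5 and 14.8 CPM in WT 1, 2 and 3. The remaining inner arm genes, Dnah1, Dnah2, Dnah3, Dnah6, Dnah10, Dnah12 and Dnah14, had log2 fold changes of -0.61 for Dnah3 to 0.30 for Dnah12, and 0 of them passed in edgeR or at an unadjusted p under 0.05. Dnah6, the most abundant of these 7 by CPM, was at 12.4 ± 1.0 CPM in KO and 12.3 ± 3.62 CPM in WT, and Dnah10 at 2.84 ± 0.226 CPM in KO and 3.39 ± 0.288 CPM in WT (SD, n = 3 each).

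**Figure D2:**
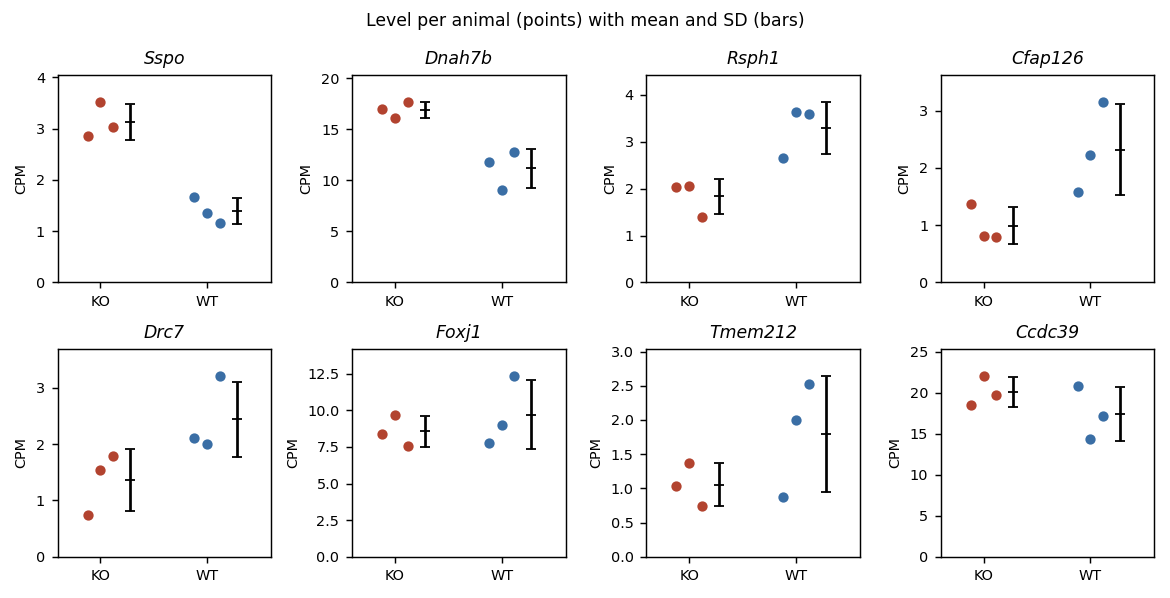
CPM of 8 genes in each animal (points, KO left of WT in each panel, linear axes from 0) with the mean and SD of 3 animals (black bars). Sspo and Dnah7b are higher in all KO animals, Rsph1, Cfap126 and Drc7 are lower without passing the test, and Foxj1, Tmem212 and Ccdc39 overlap.

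Genes for the tethers that hold or modify inner arms are Cfap43 and Cfap44, which encode a tether at the motor heads of an inner arm, and Cfap57, Cfap73 and Cfap100. Cfap44 had 3.35, 4.43 and 3.92 CPM in KO, against 5.51, 4.34 and 5.64 CPM in WT, with KO 2 above WT 2, and did not pass (log2 fold change -0.41, SE 0.17, adjusted p = 0.254). Cfap43 averaged 2.95 ± 0.387 CPM in KO and 2.92 ± 0.963 CPM in WT, Cfap57 0.863 ± 0.10 CPM in KO and 1.13 ± 0.462 CPM in WT and Cfap100 5.51 ± 0.494 CPM in KO and 5.1 ± 1.02 CPM in WT (SD, n = 3 each), and all 3 overlapped between the groups. Cfap73 was under the limit of 60 counts, with 2, 6 and 3 counts in KO and 2, 6 and 15 counts in WT.

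Radial spokes reach from the ring towards the central pair, and Rsph1, Rsph4a and Rsph9 encode proteins of the spoke head. Rsph1 (chromosome 17, 31255019 to 31277383, minus strand) had the smallest p among the axoneme genes with lower levels. It had 2.04, 2.06 and 1.39 CPM in KO, against 2.65, 3.64 and 3.6 CPM in WT. The counts behind these were 61, 48 and 28 counts in KO and 64, 62 and 74 counts in WT. All 3 KO libraries lay below all 3 WT libraries, KO 3 being the lowest, yet the gene did not pass (log2 fold change -0.82, SE 0.22, adjusted p = 0.106). It passed with no filter on low counts (adjusted p = 0.0149) and without WT 1 (adjusted p = 0.0207), and its adjusted p ranged up to 0.304 over the 12 alternatives. Both settings also raised the genes called lower over all genes, from 159 to 820 with no filter and to 962 without WT 1. Rsph9, the most abundant of the Rsph genes per kb, had 2.85, 2.97 and 3.13 CPM in KO, against 3.52, 3.46 and 4.18 CPM in WT, also without overlap (log2 fold change -0.32, SE 0.17, adjusted p = 0.341). Rsph4a was at 1.74 ± 0.103 CPM in KO and 2.3 ± 1.03 CPM in WT (SD, n = 3 each), where WT 3 held the highest value and the other WT libraries lay near KO (adjusted p = 0.494). The stalk genes Rsph3a and Rsph3b are near-copies on chromosome 17, so their reads can be split wrongly, and they had log2 fold changes of -0.22 and 0.16 with adjusted p = 0.554 and 0.59. Rsph10b, which shares exons with Pms2 in the annotation, was at 6.93 ± 0.838 CPM in KO and 5.94 ± 0.958 CPM in WT (SD, n = 3 each, adjusted p = 0.509). Cfap61, of the complex at the base of the spokes, was at 1.51 ± 0.572 CPM in KO and 2.28 ± 0.247 CPM in WT and Cfap206 at 0.796 ± 0.429 CPM in KO and 1.14 ± 0.581 CPM in WT (SD, n = 3 each), and neither passed (adjusted p = 0.302 and 0.601). Rsph14 had 2, 2 and 0 counts in KO and 3, 5 and 4 counts in WT, and Rsph6a, a spoke gene of sperm, had 7 counts in all.

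The nexin link carries the dynein regulatory complex, to which Drc1, Drc3 and Drc7 belong, while CCDC39 and CCDC40 form the ruler that sets the spacing of spokes and inner arms along the axoneme. Of these 6 genes, Ccdc153 included, 0 passed in edgeR. At an unadjusted p under 0.05, 1 was lower (16.7%, where 8.99% of all tested genes were). That was Drc7, with 0.737, 1.55 and 1.79 CPM in KO, against 2.11, 2.0 and 3.21 CPM in WT. The highest KO value was just under the lowest WT value (log2 fold change -0.88, SE 0.33, adjusted p = 0.208), and the gene passed with no filter on low counts (adjusted p = 0.025). With no filter 820 genes were called lower over all genes, against 159 with it. Drc1, the most abundant of the Drc genes per kb, had 8.04, 8.38 and 7.05 CPM in KO, against 8.16, 7.1 and 7.97 CPM in WT. Its groups overlapped almost entirely, and the 95% interval of its log2 fold change ran from -0.26 to 0.29 (adjusted p = 0.964). Drc3 was at 3.57 ± 0.576 CPM in KO and 3.04 ± 1.16 CPM in WT (SD, n = 3 each, adjusted p = 0.665). Ccdc39 had 18.5, 22.1 and 19.7 CPM in KO, against 20.9, 14.3 and 17.1 CPM in WT (log2 fold change 0.20, SE 0.13, adjusted p = 0.459), and its exons overlap Ttc14 on the opposite strand. Ccdc40, its partner in the ruler, had 3.59, 3.05 and 2.48 CPM in KO, against 2.07, 2.76 and 2.48 CPM in WT (log2 fold change 0.34, SE 0.21, adjusted p = 0.422), with KO 3 level with WT 3. Ccdc153 had 2.21, 3.31 and 1.69 CPM in KO, against 1.86, 2.29 and 3.55 CPM in WT, and both groups spanned much the same range (log2 fold change -0.09, adjusted p = 0.908).

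The central pair and its projections gave 6 tested genes, and 0 passed in edgeR. At an unadjusted p under 0.05, 1 was lower, Cfap54 (16.7%, where 8.99% of all tested genes were). Cfap221 had 14 counts in all and was not tested. Cfap54, of a projection of the central pair, had 1.71, 2.15 and 1.54 CPM in KO, against 2.32, 2.23 and 4.03 CPM in WT. All KO values were below the WT values, and WT 3 stood well above WT 1 and WT 2 (log2 fold change -0.67, SE 0.27, adjusted p = 0.238). Spef2, another projection gene that is also needed in sperm tails, had 2.18, 1.76 and 1.69 CPM in KO, against 1.99, 2.35 and 3.6 CPM in WT, with KO 1 above WT 1 (log2 fold change -0.48, SE 0.25, adjusted p = 0.353). Cfap65 was at 1.97 ± 0.321 CPM in KO and 2.65 ± 0.852 CPM in WT, Cfap46 at 3.94 ± 0.0943 CPM in KO and 4.04 ± 0.626 CPM in WT and Cfap69 at 10.5 ± 0.777 CPM in KO and 10.9 ± 0.473 CPM in WT (SD, n = 3 each), with adjusted p = 0.425, 0.925 and 0.78. Cfap74 was at 14 ± 1.47 CPM in KO and 12.5 ± 4.33 CPM in WT (SD, n = 3 each) and passed, higher in KO, only without WT 1 (log2 fold change 0.47, adjusted p = 0.0445, against 0.15 and 0.735 with it). Leaving out WT 2 instead, the log2 fold change of Cfap74 was -0.02. Without WT 1, 959 genes were called higher over all genes, against 143 with all animals.

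Proteins bound along the microtubule walls of the ring include those of Cfap20, Cfap45, Cfap52, Cfap53, Cfap77, Cfap126 and Cfap161. Cfap126 (chromosome 1, 171113918 to 171126967, plus strand), whose product Flattop helps to position basal bodies in the mouse, had 1.37, 0.817 and 0.794 CPM in KO, against 1.57, 2.23 and 3.16 CPM in WT. The counts behind these were 41, 19 and 16 counts in KO and 38, 38 and 65 counts in WT. The highest KO library stayed below the lowest WT library, and the mean was 0.995 ± 0.328 CPM in KO and 2.32 ± 0.797 CPM in WT (SD, n = 3 each), but the gene did not pass (log2 fold change -1.18, SE 0.32, adjusted p = 0.106). It passed with no filter (adjusted p = 0.00129) and without WT 1 (adjusted p = 0.0166), and without WT 3 its log2 fold change was -0.87 (adjusted p = 0.202). Over all genes 820 were called lower with no filter and 962 without WT 1, against 159 with the filter and all animals. Cfap77 had 14, 10 and 4 counts in KO and 10, 11 and 27 counts in WT, a low gene in which WT 3 held the highest value (log2 fold change -1.04, adjusted p = 0.308). Cfap161 had 15, 15 and 12 counts in KO and 17, 4 and 11 counts in WT (log2 fold change 0.18, adjusted p = 0.855). Cfap20, an abundant inner-wall gene, was at 48.7 ± 0.468 CPM in KO and 51.4 ± 3.71 CPM in WT (SD, n = 3 each, adjusted p = 0.535), and Cfap45, Cfap52 and Cfap53 had log2 fold changes of 0.36, -0.19 and 0.01 with adjusted p = 0.577, 0.802 and 0.986. Cfap298 and Cfap300, which encode factors for the assembly of dynein arms in the cytoplasm, were at 7.97 ± 0.255 CPM in KO and 7.37 ± 0.577 CPM in WT and 5.48 ± 0.698 CPM in KO and 6.78 ± 0.389 CPM in WT (SD, n = 3 each), with adjusted p = 0.658 and 0.297.

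Tmem212, a membrane protein gene used as a marker of ependymal cells, had 1.04, 1.38 and 0.745 CPM in KO, against 0.87, 2.0 and 2.53 CPM in WT. WT 1 lay within the KO range and the other WT libraries above it (log2 fold change -0.74, SE 0.39, adjusted p = 0.347), and the gene passed without WT 1 alone (log2 fold change -1.10, adjusted p = 0.0356). Without WT 1, 962 genes were called lower over all genes, against 159 with all animals. Dynlrb2, a roadblock-type dynein light chain gene, had 0.67, 1.42 and 0.645 CPM in KO, against 0.787, 1.52 and 1.94 CPM in WT, with the same order of the WT libraries (log2 fold change -0.62, SE 0.41, adjusted p = 0.453). Cfap36, the most abundant of the 66 genes, had 96, 101.1 and 88.9 CPM in KO, against 102.8, 101.6 and 98.5 CPM in WT, and the groups overlapped (log2 fold change -0.08, SE 0.06, adjusted p = 0.494). Cfap99 had 2.28, 2.41 and 2.28 CPM in KO, against 1.95, 1.88 and 1.85 CPM in WT, a small difference without overlap that did not pass (log2 fold change 0.30, SE 0.19, adjusted p = 0.433). Cfap58, Cfap97, Cfap97d2 and Cfap157 had log2 fold changes of 0.28, -0.14, -0.20 and 0.07, and adjusted p = 0.579, 0.363, 0.691 and 0.935. Cfap299 and Cfap97d1 had 59 and 18 counts in all.

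Sspo (chromosome 6, 48448229 to 48501250, plus strand) encodes SCO-spondin, a very large secreted glycoprotein that is released by the subcommissural organ and forms the Reissner fibre in the cerebrospinal fluid, and is no part of the axoneme. It had 2.85, 3.52 and 3.03 CPM in KO, against 1.66, 1.35 and 1.17 CPM in WT. The counts behind these were 85, 82 and 61 counts in KO and 40, 23 and 24 counts in WT. Every KO library was above every WT library, and the mean was 3.13 ± 0.35 CPM in KO and 1.39 ± 0.248 CPM in WT (SD, n = 3 each). The fitted level was 2.23 times that of WT (log2 fold change 1.16, SE 0.21, adjusted p = 0.0261, 95% interval 0.69 to 1.63). The adjusted p was 0.0932 without KO 1, 0.161 without KO 2, 0.101 without KO 3 and 0.103 without WT 2, and the log2 fold change stayed between 1.04 and 1.32 over the 12 alternatives.

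**Figure D3:**
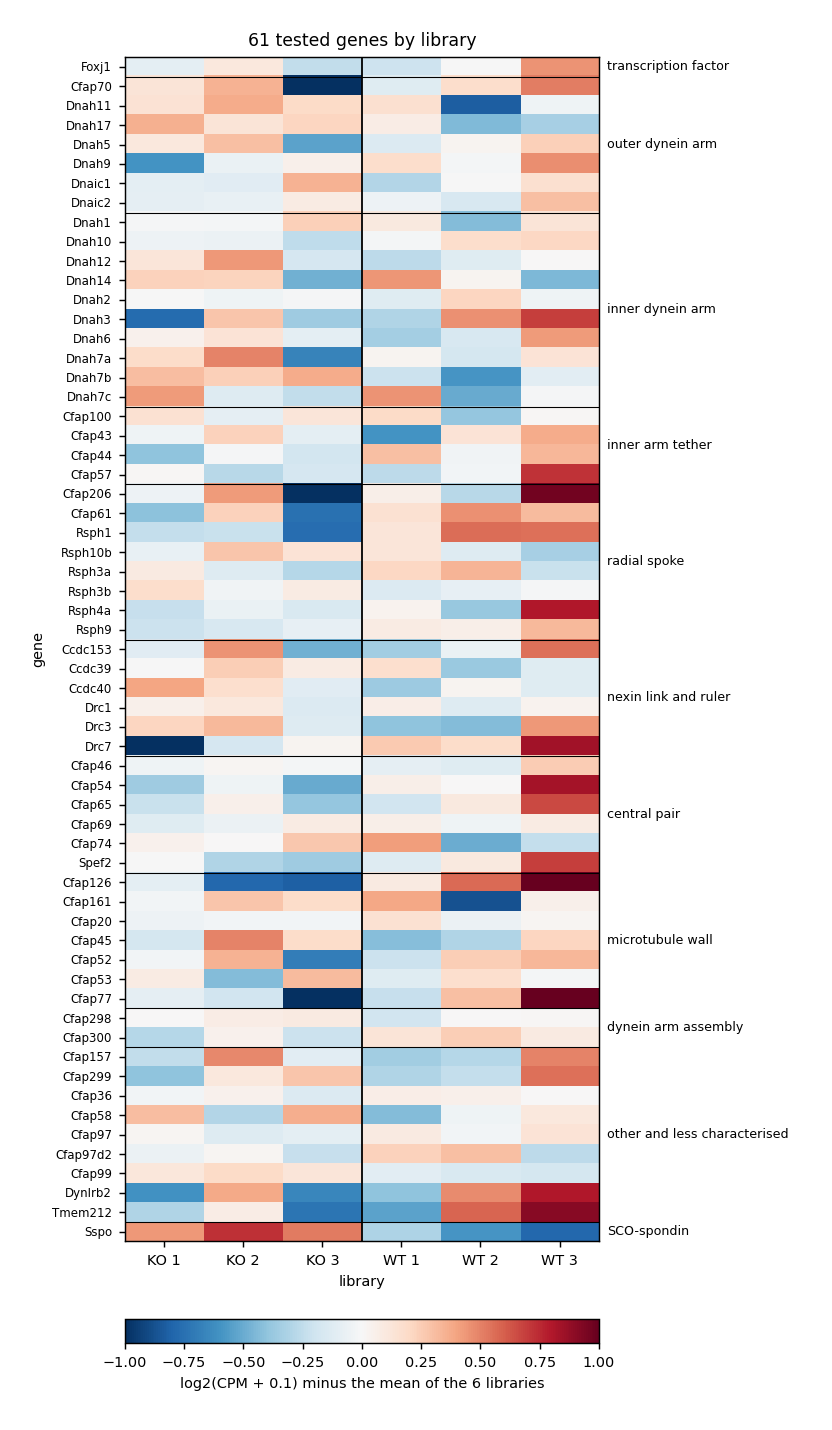
Each of the 61 tested genes (rows, by role) in each library (columns), as log2(CPM + 0.1) minus the mean of the 6 libraries (colour, capped at 1 in either direction). WT 3 is the highest library for 27 of the 61 genes, in most roles, and Sspo runs the other way.

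WT 3 stood out among the libraries. It was the highest of the 6 libraries in 27 of the 61 genes (44.3%), where it was the highest in 22.75% of all tested genes. Among the 14 markers of cerebellar tissue WT 3 was the highest in 0 and the lowest in 10 (71.4%). Over all tested genes it was the lowest in 21.03%. KO 3 was the lowest in 21 of the 61 (34.4%), where it was the lowest in 16.34% of all tested genes. The genes highest in WT 3 came from most parts of the axoneme, with 4 of 6 central pair genes (Cfap46, Cfap54, Cfap65 and Spef2), 3 of 4 inner arm tether genes (Cfap43, Cfap44 and Cfap57), 3 of 8 spoke genes, 3 of 10 inner arm and 3 of 7 outer arm genes, and with Foxj1, Tmem212 and Dynlrb2. The median of log2(CPM + 0.1) minus the mean of the 6 libraries was -0.03, 0.05 and -0.12 in KO 1, 2 and 3, against -0.05, -0.03 and 0.21 in WT 1, 2 and 3. Without WT 3 the median log2 fold change of the 61 genes was 0.03. The summed level of all 66 genes was 398, 418 and 388 CPM in KO 1, 2 and 3, against 413, 382 and 432 CPM in WT 1, 2 and 3, and Cfap36 alone made up 88.9 to 103 CPM of it in each library.

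Per length the genes covered a wide range. As CPM per kb of exon, averaged over the 2 group means, the 60 measured genes ran from 0.0494 for Dnah7a to 35.8 for Cfap36, with a median of 0.595 and 20 genes above 1. Cfap36 was at 34.7 ± 2.23 in KO and 36.8 ± 0.806 in WT, Cfap20 at 10.9 ± 0.105 in KO and 11.5 ± 0.833 in WT and Cfap97 at 5.45 ± 0.303 in KO and 6.0 ± 0.339 in WT CPM per kb (SD, n = 3 each), above all other members. Foxj1, the sixth in that order, was at 3.26 ± 0.398 in KO and 3.7 ± 0.902 in WT CPM per kb. Most heavy chain genes were at the low end, Dnah5 at 0.173 ± 0.0499 in KO and 0.179 ± 0.0246 in WT and Dnah3 at 0.0618 ± 0.0257 in KO and 0.0942 ± 0.033 in WT CPM per kb. Dnah11, Dnah6 and Dnah7b were the highest heavy chain genes, at 1.07 ± 0.0896 in KO and 0.80 ± 0.262 in WT, 0.938 ± 0.0757 in KO and 0.926 ± 0.273 in WT and 0.847 ± 0.0391 in KO and 0.559 ± 0.096 in WT CPM per kb in that order. Sspo was at 0.198 ± 0.0221 in KO and 0.0877 ± 0.0156 in WT CPM per kb, among the lowest.

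**Figure D4:**
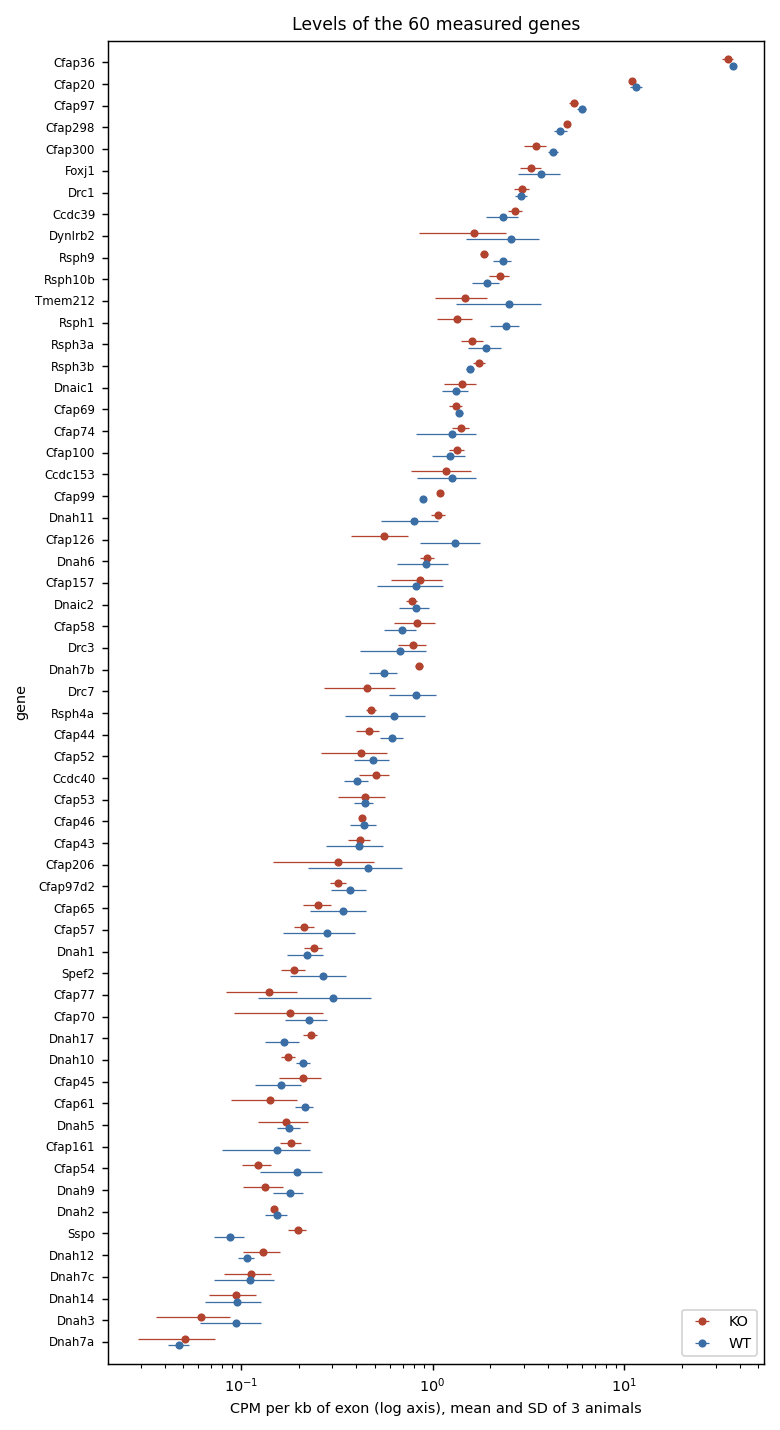
Level of the 60 measured genes as CPM per kb of exon on a log axis (mean and SD of 3 animals, KO red, WT blue), from the most to the least abundant. Cfap36 stands at the top, most heavy chain genes lie in the lower part, and the 2 groups lie close together for most genes.

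The promoters of the genes were searched for short motifs of 2 families of factors that act on ciliary genes. RFX factors bind the X-box, whose core was searched as GTTGCCA on both strands in the RefSeq promoter windows (GRCm38.p6, 250 bases before to 50 after each start) of the 54 genes that had one. The core was present in 11 of the 54 genes (20.37%), where 5.025% of all 27025 genes with such a window had it. A forkhead core of the kind FOXJ1 binds, GTAAACA, was in 3 of the 54 (5.556%), where 4.052% of all genes had it. The full palindromic X-box, whose arms resemble the core, was in 0 of the 54 and in 0.1517% of all genes. Only exact matches were counted and marked, so a near match that differs by a single letter, as in the Cfap44 window, is left out. The 11 genes were Cfap161, Cfap20, Cfap298, Cfap300, Cfap44, Cfap58, Cfap74, Cfap97d2, Dnah10, Dnah7b and Drc1, and of these only Dnah7b passed the test, higher in KO. The windows with the most copies, Cfap161 with 3 and Cfap44 with 2, and that of Dnah7b with 1 are shown 5′ to 3′ along the gene's strand, with the X-box core or its reverse complement TGGCAAC in capitals.
Dnah7b (chr1:46066603-46066902, plus strand): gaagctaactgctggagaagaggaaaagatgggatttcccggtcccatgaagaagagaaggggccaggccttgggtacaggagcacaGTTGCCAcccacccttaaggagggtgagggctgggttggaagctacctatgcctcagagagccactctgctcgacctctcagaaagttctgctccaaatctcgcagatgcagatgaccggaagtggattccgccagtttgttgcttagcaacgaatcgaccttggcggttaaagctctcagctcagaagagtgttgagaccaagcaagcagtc
Cfap44 (chr16:44394549-44394848, plus strand): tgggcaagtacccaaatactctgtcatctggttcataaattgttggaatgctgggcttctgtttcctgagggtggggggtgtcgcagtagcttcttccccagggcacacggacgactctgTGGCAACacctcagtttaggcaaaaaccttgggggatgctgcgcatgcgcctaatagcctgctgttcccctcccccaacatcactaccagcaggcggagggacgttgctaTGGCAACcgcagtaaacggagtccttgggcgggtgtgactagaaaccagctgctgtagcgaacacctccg
Cfap161 (chr7:83794790-83795089, minus strand): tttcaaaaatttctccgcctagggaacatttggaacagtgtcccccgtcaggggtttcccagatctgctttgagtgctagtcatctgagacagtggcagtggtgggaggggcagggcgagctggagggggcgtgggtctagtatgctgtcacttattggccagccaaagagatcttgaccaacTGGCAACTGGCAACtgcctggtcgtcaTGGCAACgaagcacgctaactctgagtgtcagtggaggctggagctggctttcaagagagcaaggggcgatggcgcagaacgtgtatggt
The copies of Cfap161 begin 67, 60 and 40 bases before the start, the first 2 of them back to back, those of Cfap44 130 and 20 bases before it, and that of Dnah7b 163 bases before it. A match of these letters is a description and does not show that a factor binds there.

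Other genes of motile axonemes, in a list that shares no gene with the 66, leaned lower in KO. They held no call with all animals and the filter on low counts. Of 58 tested of 69, 0 passed in edgeR, DESeq2 and limma-voom, and 47 had log2 fold changes below 0, with a median of -0.21 (81.0% below 0, where 51.5% of all tested genes were). KO lay wholly below WT in 11 of them (19.0%, where 12.2% of all tested genes did). At an unadjusted p under 0.05, 8 were lower (13.8%) and 0 higher, where 8.99% and 8.57% of all tested genes were. The smallest p belonged to Wdr63, an inner arm intermediate chain gene, with 0.57, 0.602 and 0.348 CPM in KO, against 0.953, 2.05 and 1.46 CPM in WT (log2 fold change -1.49, SE 0.36, adjusted p = 0.0755). Next came Pifo, a gene of cilia disassembly, with 0.302, 0.215 and 0.298 CPM in KO, against 0.58, 0.528 and 1.31 CPM in WT (log2 fold change -1.55, SE 0.46, adjusted p = 0.126), where WT 3 was the highest library. The median of this list was -0.09 without WT 3 and -0.34 without WT 1, and 7 genes passed, all lower, without WT 1. Leaving out WT 1 raised the count of calls over all genes as well, to 959 higher and 962 lower. With no filter on low counts 6 genes of this list passed, all lower, where 820 genes were called lower over all genes. Of 13 tested dynein arm preassembly genes of 17, 0 passed in edgeR, and 11 had log2 fold changes below 0 (84.6%). At an unadjusted p under 0.05, 0 were higher and 1 was lower (7.69%), Daw1, with 11, 10 and 2 counts in KO and 12, 11 and 20 counts in WT (log2 fold change -1.16, adjusted p = 0.252). Spag1 of that list was at 30 ± 4.06 CPM in KO and 25.5 ± 5.58 CPM in WT (SD, n = 3 each, adjusted p = 0.439). In that list Dyx1c1 and Pih1d3 were listed at 0 in each library. Intraflagellar transport serves all cilia, and 0 of its 31 genes passed in edgeR, while 25 had log2 fold changes below 0 (80.6%, where 51.5% of all tested genes were). KO lay wholly below WT in 9 of the 31 (29.0%, where 12.2% of all tested genes did). At an unadjusted p under 0.05, 1 was higher (3.23%), Kif17 (log2 fold change 0.44, adjusted p = 0.0894), and 5 were lower (16.1%), where 8.57% and 8.99% of all tested genes were. Of the lower ones Ift46 had the smallest p (log2 fold change -0.25, adjusted p = 0.0817). Without WT 1, 3 genes of this list passed lower, and 1 regulator, 1 preassembly gene and 1 spermatid gene passed higher. With no filter, 1 transport gene passed higher, and 2 transport genes and 1 regulator passed lower. DESeq2 and limma-voom called 0 genes in the regulator, preassembly and transport lists.

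Choroid plexus epithelium markers moved far more than the axoneme genes. Of 16, 11 fell and 0 rose (68.8%, where 0.872% of all tested genes fell), with a median log2 fold change of -2.07. KO lay wholly below WT in 14 of the 16 (87.5%, where 12.2% of all tested genes did). The 11 that fell were Aqp1, Mfrp, Folr1, Enpp2, Slc4a5, Kl, Kcne2, Kcnj13, Sostdc1, Tmem72 and F5. The summed level of the 16 was 253, 554 and 820 CPM in KO 1, 2 and 3, against 1667, 2596 and 2969 CPM in WT 1, 2 and 3. Ttr, the transthyretin gene, was at 218.4 ± 213.3 CPM in KO and 1650.3 ± 484.9 CPM in WT (SD, n = 3 each) and with Enpp2 made up most of that sum, and did not itself pass (adjusted p = 0.154). KO 1 was the lowest library in all 16 markers and in 8 of the 61 axoneme genes (13.1%), where it was the lowest in 13.1% of all tested genes. WT 3 was the highest in 10 of the 16 (62.5%) and in 27 of the 61 axoneme genes (44.3%), where it was the highest in 22.75% of all tested genes. The count of markers that fell was 1 without KO 2 and 2 without WT 2, where 53 and 79 genes fell over all genes, against 159 with all animals. Among 11 tested of 13 other ependymal markers, 1 fell (9.09%, where 0.872% of all tested genes fell). This was Calml4, with 0.737, 0.559 and 1.19 CPM in KO, against 3.81, 5.98 and 4.42 CPM in WT (log2 fold change -2.52, SE 0.29, adjusted p = 0.00172), and 10 did not pass, Cd24a coming next (log2 fold change -0.25, adjusted p = 0.175). Over the 11 the median log2 fold change was -0.08, with 6 below 0 (54.5%, where 51.5% of all tested genes were). The log2 fold change of Calml4 was nearer the choroid plexus median of -2.07 than this one. Its lowest library was KO 2, whereas that of the choroid plexus markers was KO 1. Which cells the RNA of Calml4 came from was not tested. Within KO the lowest library varied among the lower genes named above for small p. Drc7, Cfap44 and Gmnc were lowest in KO 1, as the choroid plexus markers were. Pifo and Trp73 were lowest in KO 2, and Rsph1, Cfap126, Cfap54, Wdr63, Daw1 and Ift46 in KO 3. Counts behind this order were small for some, such as 9, 5 and 6 counts in KO for Pifo. The part of choroid plexus tissue in the values of these genes was not tested. Spermatid genes were near the floor, as 10 of 15 had under 60 counts summed and 4 had 0, and of the 5 tested 0 passed in edgeR, with 0 at an unadjusted p under 0.05, Gapdhs (log2 fold change 0.30, adjusted p = 0.45) and Odf2 (log2 fold change 0.11, adjusted p = 0.433) having the smallest p.

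**Figure D5:**
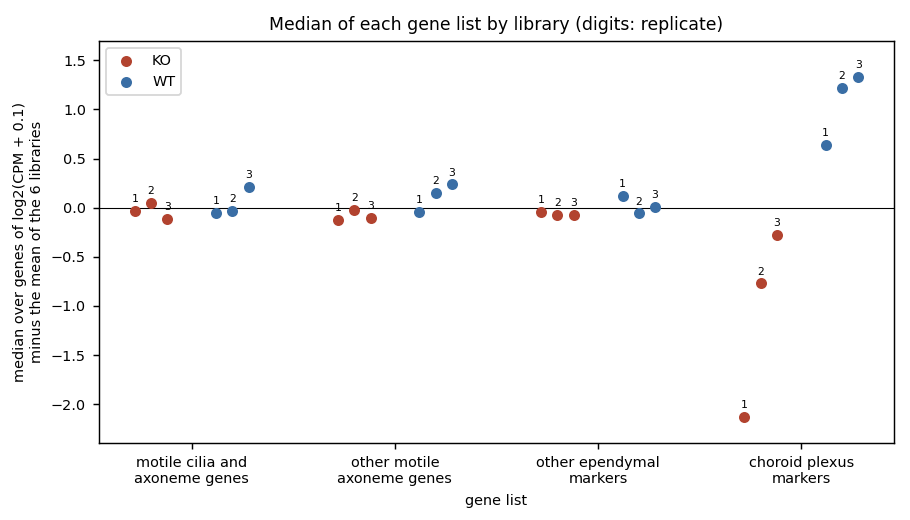
Median over the tested genes of each list of log2(CPM + 0.1) minus the mean of the 6 libraries (KO red, WT blue, digits give the replicate). The choroid plexus markers run from -2.13 in KO 1 to 1.34 in WT 3, and the axoneme genes from -0.12 in KO 3 to 0.21 in WT 3.

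By position the genes are spread over 18 chromosomes. Galnt17 lies on chromosome 5, and 7 of the genes share that chromosome, of which 6 were tested and 0 passed in edgeR, nor did any at an unadjusted p under 0.05. The nearest was Dnah10, 6.04 Mb away (log2 fold change -0.25), followed by Cfap73 at 10.2 Mb and Rsph10b at 12.6 Mb (log2 fold change 0.22). Exons of 26 of the 66 genes overlap exons of another annotated gene, such as Dnah11 with Cdca7l, Dnah17 with Pgs1 and Rsph10b with Pms2. The libraries do not keep strand, so reads in such stretches cannot be given to either gene.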

How the data were processed

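For each library the authors deposited a table of whole-number read counts by gene. The submitters' processing notes name STAR 2.7.5a, edgeR 3.12 and the build mm10/GRCm38, and the files name Ensembl release 102. The settings of the read counting are not stated in the sources used here. Paired reads of TruSeq libraries were sequenced, per the labels' protocols. The counts made without strand were used, because the first strand held 49.9% to 50.0% of stranded counts. Unmapped, multimapping, unassigned and ambiguous reads stayed out of library sizes and tests. Symbols, positions and exon lengths came from GENCODE M21 (GRCm38), which matched 55227 of 55487 identifiers.

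KO was compared with WT with edgeR 4.0.16 in R 4.3.3 (TMM, quasi-likelihood F test, two-sided, default filter with minimum count 10 and total 15, Benjamini-Hochberg adjusted p below 0.05 over all genes), with DESeq2 1.42.0 and limma 3.58.1 as alternatives. SEs and intervals were derived from each F statistic and rest on 3 animals per group, so p-values measure the spread between animals. The steps were tested on simulated data. The members and lists were chosen with earlier results of these data known. Genes named in full are those given by name in the choice of members, those called, the 5 of smallest p in each direction, the most abundant per kb of each symbol family and those next to the limit of 60 counts, and of each other list those called and the 2 of smallest p. Ttr, and members given only by mean or fold change, were named with their values known.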

Additional observations from a re-analysis of the deposited data

How the results depend on the processing

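Across 12 alternatives, the number of the 61 genes called higher in KO was 2, Sspo included, and the number called lower was 0, with other scaling, with a limit of 60 summed counts, in DESeq2, in limma-voom and without WT replicate 3. With no filter on low counts 3 were higher and 3 lower. Leaving out 1 animal at a time, 0 to 3 were higher and 0 to 3 lower. All genes called numbered 143 higher and 159 lower, against 803 and 820 with no filter and 290 and 272 in DESeq2, and 28 to 959 higher and 53 to 962 lower with 1 animal left out, most of them without WT replicate 1. The cause was not tested. The median log2 fold change of the 61 genes stayed between -0.12 and 0.03. Of 1043 values of 87 genes under the alternatives, 982 kept their side of the threshold, 41 lost a call and 20 gained one, and no called value changed its direction. No paired analysis was possible because no replicate number in the labels links a KO animal to a WT animal. Depth limits the lowest genes, as the measured genes had a median of 349 counts over the 6 libraries.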
